A study of Homo sapiens with 28 samples.

Results

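Control MDA-MB-231 cells held in suspension for 4 days were compared with the same cells held in suspension for 2 days, using 4 of the study's 28 libraries. MDA-MB-231 is a human triple-negative breast cancer line with mesenchymal features, and the libraries are bulk RNA sequencing. The control cells carried an empty vector (EV); a second line overexpressed tropomyosin 2.1 (Tpm2.1), an actin-binding product of TPM2. The members were the libraries labelled as EV cells in suspension at 2 days (replicates 1 and 2) and at 4 days (replicates 1 and 2). Both lines were grown with fetal bovine serum and puromycin, then kept in suspension on ultra-low attachment plastic for between 5 hours and 4 days, or left to attach for 6 hours. No separation of live from dying EV cells is stated, so their libraries may hold both. Tpm2.1 cells in suspension were parted at each time on beads that carry Annexin V, which binds phosphatidylserine on dying cells, into a non-apoptotic and an apoptotic fraction. The labels describe 1 EV line and name biological replicates in each group of 2 but not how their cultures were set apart. The p-values therefore measure the spread between libraries of a group, pooled over all 14 groups of the study. That spread may be technical.

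Most adherent cells that lose contact with matrix die by anoikis, a form of apoptosis in which BH3-only proteins such as BMF take part. Cells that survive in suspension tend to cluster, where oxygen and nutrients can run low, and stressed cells draw on hypoxia-inducible factors, on ATF4 and the integrated stress response, on the unfolded protein response of the endoplasmic reticulum (ER) and on sterol-regulated lipid synthesis. Mitochondrial DNA codes for a small set of respiratory chain subunits, whose transcripts are counted beside the nuclear ones.

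The 2-day libraries held from 14679852 to 15480081 gene counts and the 4-day libraries from 15207562 to 15285396. Levels are CPM, counts divided by the library total after TMM scaling and brought to a common scale, given for replicate 1 and then replicate 2. Fold changes are log2 values of 4 days over 2 days with an approximate standard error (SE), and calls are edgeR's quasi-likelihood test at a Benjamini-Hochberg adjusted p below 0.05. In bulk RNA, fewer cells of a kind and less RNA per cell cannot be told apart. The line's markers VIM, CD44, AXL, MSN and CAV1 were present in all 4 libraries, and SPARC, listed as a marker, was below 1 CPM. Of the genes listed as absent or near 0, CDH1 and PGR were at 0 and ESR1 at 0.268 to 0.540 CPM. The epithelial gene EPCAM, on the same list, was at 3.88 to 4.43 CPM. Of the markers of other cells, 5 of 6 immune and 3 of 3 basal genes were under 1 CPM in all 4 libraries; the summed fibroblast markers, mainly COL1A1, ran from 53.8 to 53.9 CPM at 2 days and from 28.3 to 32.6 CPM at 4 days, with 3 of 6 under 1 CPM. Luminal epithelial markers, mainly the keratins KRT8, KRT18 and KRT19, summed to 584 to 643 CPM at 2 days and 541 to 576 CPM at 4 days; within them KRT19 rose by 0.98 and KRT8 fell by 0.42. Summed immune markers ran from 3.50 to 3.74 CPM and then from 4.95 to 5.6 CPM, and endothelial ones from 12.3 to 14.4 CPM and then from 17.3 to 18.7 CPM; the part of any of these in the results was not tested. TPM2 itself read 40.1 and 43.2 CPM and then 22.7 and 29.3 CPM in EV cells, against 6081 and 5564 CPM in the non-apoptotic Tpm2.1 fraction at 2 days.

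Of 17191 genes tested, 6714 were called (39.1%), 3836 higher (22.3%) and 2878 lower (16.7%) at 4 days. Past a 2-fold change the balance was reversed, with 311 genes higher (1.81%) and 828 lower (4.82%). The median over all genes was 0.02. From 1 to 2 days, a step that shares the 2-day libraries, 3309 genes were called (19.2%; 9.25% higher and 9.99% lower, and past 2-fold 0.657% and 0.576%). Without replicate 1 of the 4-day group 1770 genes were lower, in place of 2878, and 729 in place of 1139 were called past 2-fold in either direction.

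**Figure D1:**
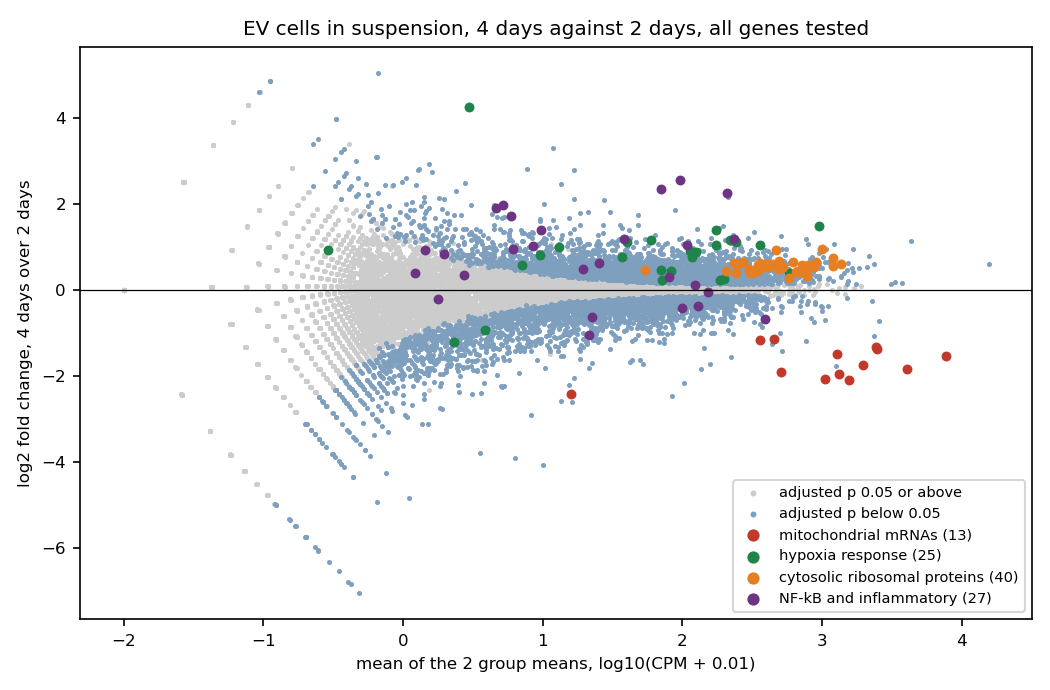
Log2 fold change of each tested gene (4 days over 2 days, vertical axis) against its mean level (log10 of CPM, horizontal axis); pale blue points were called, grey points were not, and 4 gene lists are in colour. The 13 mitochondrial mRNAs (red) lie below -1, the 40 ribosomal protein genes (orange) form a narrow band between 0.28 and 0.94, and points at the left edge rest on few counts.

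The change was read through 40 lists of pathway genes, which hold 886 different genes. Of these 854 were tested, 31 were below the filter on low counts and 1 was not matched. The hypoxia list had the highest median (0.87) and the mitochondrial mRNAs the lowest (-1.75). The shares of all genes given above are the background for each count of members. Most members code for proteins, and of 13343 protein-coding genes tested 3637 were higher and 2250 lower. That is a larger share higher than over all genes and nearly the same share lower, so small excesses of higher members mean little. Genes named beyond the 4 with the smallest p of a list were chosen after their values were seen. Since both choices used these values, a lack of overlap between the groups of a named gene is a description and adds no evidence.

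**Figure D2:**
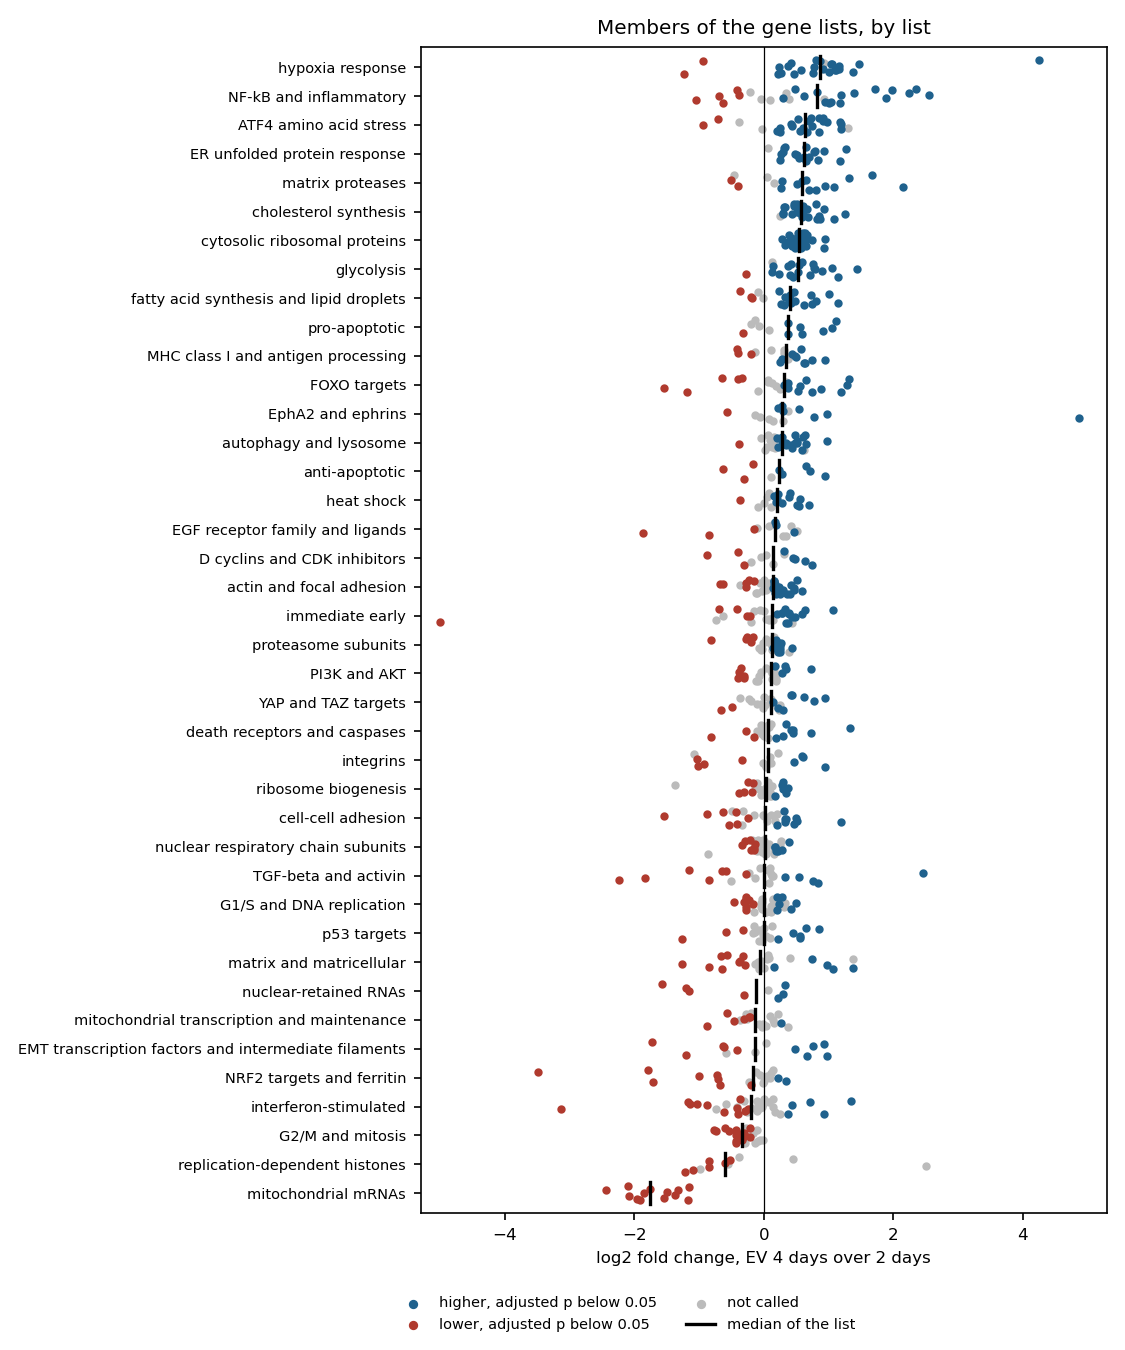
Log2 fold change (4 days over 2 days, horizontal axis) of each tested member of the 40 lists, ordered by list median (black bars); blue and red points were called higher and lower, grey points were not called. Hypoxia, inflammatory, ATF4 and ER stress genes lie mostly to the right of 0 and mitochondrial mRNAs to the left; the points near 5 and -5 are EPHA7 and DUSP2, which had 0 to 6 reads in each library.

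Genes induced by low oxygen rose almost throughout: 22 of 25 members were higher and 2 lower, with a median of 0.87 (1 lower without replicate 2 of the 2-day group, 0 without replicate 1 of the 4-day group). Fewer members were also called higher without replicate 1 of either group, as in the glycolysis and ATF4 lists below. The hypoxia median was then 0.80 without the 2-day library and 0.87 without the 4-day one. NDRG1, a hypoxia- and stress-induced gene, read 491 and 520 CPM at 2 days and 1346 and 1464 CPM at 4 days, up by 1.47 ± 0.0586 (SE; edgeR adjusted p = 3.18e-21). LOX, which crosslinks collagen, read 93.2 and 101 CPM and then 257 and 249 CPM, up by 1.38 ± 0.0808. Both genes were far apart between the groups and close within them. BNIP3, a BH3-like protein of the outer mitochondrial membrane that takes part in mitophagy, read 231 and 241 CPM and then 468 and 507 CPM, up by 1.05 ± 0.0684. Its relative BNIP3L rose by 1.11 and the transcriptional repressor BHLHE40 by 1.17. CA9, a carbonic anhydrase and classical hypoxia marker that was chosen after its values were seen, had 9 and 0 reads at 2 days and 84 and 83 reads at 4 days. VEGFA, the angiogenic growth factor, rose by 0.38, from 502 and 512 CPM to 653 and 665 CPM. CXCR4 and STC2 were the members that fell, by 1.23 and 0.94, both from below 6 CPM.

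Glycolysis moved the same way, with 18 of 20 members higher, 1 lower (0 without replicate 1 of the 4-day group) and a median of 0.53. HK2, the hexokinase that traps glucose in the cell, read 97.2 and 101 CPM and then 259 and 277 CPM, up by 1.44 ± 0.0784. PGK1, an ATP-producing step, read 508 and 522 CPM and then 1066 and 1077 CPM, up by 1.06 ± 0.0609. Neither gene's groups overlapped, and replicates differed by less than 10% of their mean. The glucose transporter SLC2A3 rose by 1.14, GAPDH by 0.79 and LDHA, a lactate dehydrogenase subunit, by 0.46. PFKM, a phosphofructokinase, was the member that fell, by 0.28.

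Hypoxia-inducible factors bind the core ACGTG. In RefSeq promoter windows of GRCh38.p14, which span 250 bases before to 50 bases after a gene's start, this core stood on either strand in 12 of 21 windows of the hypoxia list (57.1%), in 8 of 19 of the glycolysis list (42.1%) and in 21.4% of all 35116 windows. The 250 bases before the start are shown for 3 genes with a match, 5′ to 3′ on the gene's strand, with the core or its reverse complement in capitals, as examples of single, overlapping and repeated matches. LOX, BHLHE40 and HK2 also hold matches and rose by more than BNIP3 and PGK1. BNIP3 lies at chr10:131981924-131982173 (minus strand), CA9 at chr9:35673678-35673927 (plus strand) and PGK1 at chrX:78103998-78104247 (plus strand).
BNIP3: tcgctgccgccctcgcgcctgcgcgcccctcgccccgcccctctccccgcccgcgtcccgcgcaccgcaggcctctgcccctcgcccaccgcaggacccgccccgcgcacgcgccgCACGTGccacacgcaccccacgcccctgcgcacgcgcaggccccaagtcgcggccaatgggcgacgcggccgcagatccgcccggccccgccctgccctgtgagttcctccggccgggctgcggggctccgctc
CA9: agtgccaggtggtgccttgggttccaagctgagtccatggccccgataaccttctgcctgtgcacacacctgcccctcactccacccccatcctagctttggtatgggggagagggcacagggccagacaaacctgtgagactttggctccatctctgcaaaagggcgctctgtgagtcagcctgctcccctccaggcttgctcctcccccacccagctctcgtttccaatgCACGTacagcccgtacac
PGK1: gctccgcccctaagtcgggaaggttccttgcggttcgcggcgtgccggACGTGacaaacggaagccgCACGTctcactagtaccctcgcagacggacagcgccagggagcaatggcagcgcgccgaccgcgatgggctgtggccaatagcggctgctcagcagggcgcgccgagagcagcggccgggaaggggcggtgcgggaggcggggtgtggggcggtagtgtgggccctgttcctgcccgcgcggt
BNIP3 has overlapping matches on both strands, CA9 has 1 match near its start and PGK1 has 2. A match describes letters and does not show that a factor was bound. Each member counts by 1 window, whereas the background takes every window and is not matched for gene type or base composition.

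The unfolded protein response rose in 19 of 20 members with none lower, and a median of 0.62. HSPA5, the main chaperone of the ER lumen, read 483 and 466 CPM at 2 days and 1080 and 1058 CPM at 4 days, up by 1.17 ± 0.0686. DNAJB9, an ER co-chaperone, read 38.1 and 36.2 CPM and then 93.8 and 84.5 CPM, up by 1.26 ± 0.0932. Both were above their 2-day libraries without overlap. HERPUD1, a factor of ER-associated degradation, rose by 0.93 and XBP1, a transcription factor of this response, by 0.78. The sensor ERN1 was the member not called (33.3 and 32.4 CPM, then 35.9 and 32.7 CPM).

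ATF4 drives genes of amino acid supply and stress, and 20 of 26 tested members of its list were higher and 2 lower (1 without replicate 1 of the 4-day group), with a median of 0.63. TRIB3, a pseudokinase induced by ATF4, read 57.6 and 58.2 CPM and then 134 and 129 CPM, up by 1.19 ± 0.0752. ATF4 itself rose by 0.69, DDIT3 (the factor CHOP) by 1.18 and CHAC1, which degrades glutathione, by 0.74. PSAT1 and SHMT2, enzymes of serine and one-carbon metabolism, rose by 0.98 and 0.73, and WARS, a tRNA synthetase, by 0.91. ASNS, asparagine synthetase, was at 1.55 to 2.31 CPM in the 4 libraries and was not called. SLC7A11, a cystine transporter that is also an NRF2 target, fell by 0.70. Among heat shock genes 11 of 17 were higher and 1 lower, with a median of 0.20. The median was 0.23 without replicate 1 of the 4-day group.

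The ER stress element, spelled CCAAT, 9 bases of any kind and then CCACG, stood on either strand in 5 of 20 windows of the ER list (25%) and 0.1% of all windows, and the ATF4 composite element TGATGNAAN in 6 of 23 windows of the ATF4 list (26.1%) and 3.6% of all. HSPA5 at chr9:125241344-125241593 (minus strand) and CHAC1 at chr15:40953221-40953470 (plus strand) are shown as a match of each kind, with the match in capitals.
HSPA5: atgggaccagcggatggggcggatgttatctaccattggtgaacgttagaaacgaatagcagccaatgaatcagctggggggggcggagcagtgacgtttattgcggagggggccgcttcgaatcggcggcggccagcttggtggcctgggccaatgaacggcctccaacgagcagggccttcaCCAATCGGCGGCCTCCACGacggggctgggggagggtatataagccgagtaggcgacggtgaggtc
CHAC1: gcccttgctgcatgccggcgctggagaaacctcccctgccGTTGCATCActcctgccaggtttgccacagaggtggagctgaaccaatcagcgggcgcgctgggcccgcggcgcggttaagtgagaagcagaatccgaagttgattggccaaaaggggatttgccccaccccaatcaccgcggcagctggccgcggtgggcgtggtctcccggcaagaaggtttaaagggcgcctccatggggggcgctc
Both genes were among those called higher. Motifs of other lists were also counted. The sterol element stood in 1 of 19 windows of the sterol synthesis list (5.3%) and 1.1% of all. The E2F element stood in 16 of 26 windows of the replication list (61.5%) and 3.2% of all, though 6 members were higher and 8 lower. Shares were 60.9% and 25.6% for NF-kB, 68.0% and 15.2% for mitosis, and 36.4% and 3.7% for lysosome genes.

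Sterol synthesis rose in 25 of 26 members with none lower, with a median of 0.57 and a range of 0.25 to 1.25. INSIG1, the ER protein that holds back SREBP processing, read 295 and 306 CPM and then 711 and 719 CPM, up by 1.25 ± 0.0978. DHCR7, the enzyme of the last step of cholesterol synthesis, read 264 and 276 CPM and then 510 and 514 CPM, up by 0.92. In both genes the 4-day libraries lay above the 2-day libraries without overlap. In fatty acid metabolism 15 of 20 members were higher and 3 lower, with a median of 0.40 (1 lower without replicate 2 of the 2-day group, without replicate 1 of the 4-day group or with the GC trend removed). SCD, the desaturase that makes oleate, read 2604 and 2758 CPM and then 5791 and 6034 CPM, up by 1.14 ± 0.0907. FASN, fatty acid synthase, fell by 0.20. The autophagy and lysosome list had 17 of 30 members higher and 1 lower (median 0.28; 0 lower without replicate 2 of the 2-day group or either 4-day replicate), led by the protease CTSL, up by 0.97.

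Inflammatory genes held some of the steepest rises among well-expressed genes. The NF-kB list had 16 of 27 tested members higher and 5 lower, with a median of 0.83. IL1B, which codes for interleukin 1 beta, read 27.5 and 28.9 CPM and then 176 and 154 CPM, up by 2.55 ± 0.0917. CXCL8, a neutrophil chemokine, read 23.7 and 22.7 CPM and then 127 and 109 CPM, up by 2.35 ± 0.127. PTGS2, the inducible cyclooxygenase, read 72.7 and 72.3 CPM and then 339 and 350 CPM, up by 2.25 ± 0.114. None of these groups overlapped. The members that fell included NFKBIA, the inhibitor of NF-kB, by 0.42, IER3 by 0.69 and the cytokine IL11 by 1.04. Interferon-stimulated genes had 5 of 35 members higher and 11 lower (median -0.19), and 6 or 7 lower without replicate 2 of the 2-day or of the 4-day group. IFIT1, an RNA-binding antiviral protein, read 79.5 and 73.9 CPM and then 36.2 and 31.9 CPM, and fell by 1.17.

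**Figure D3:**
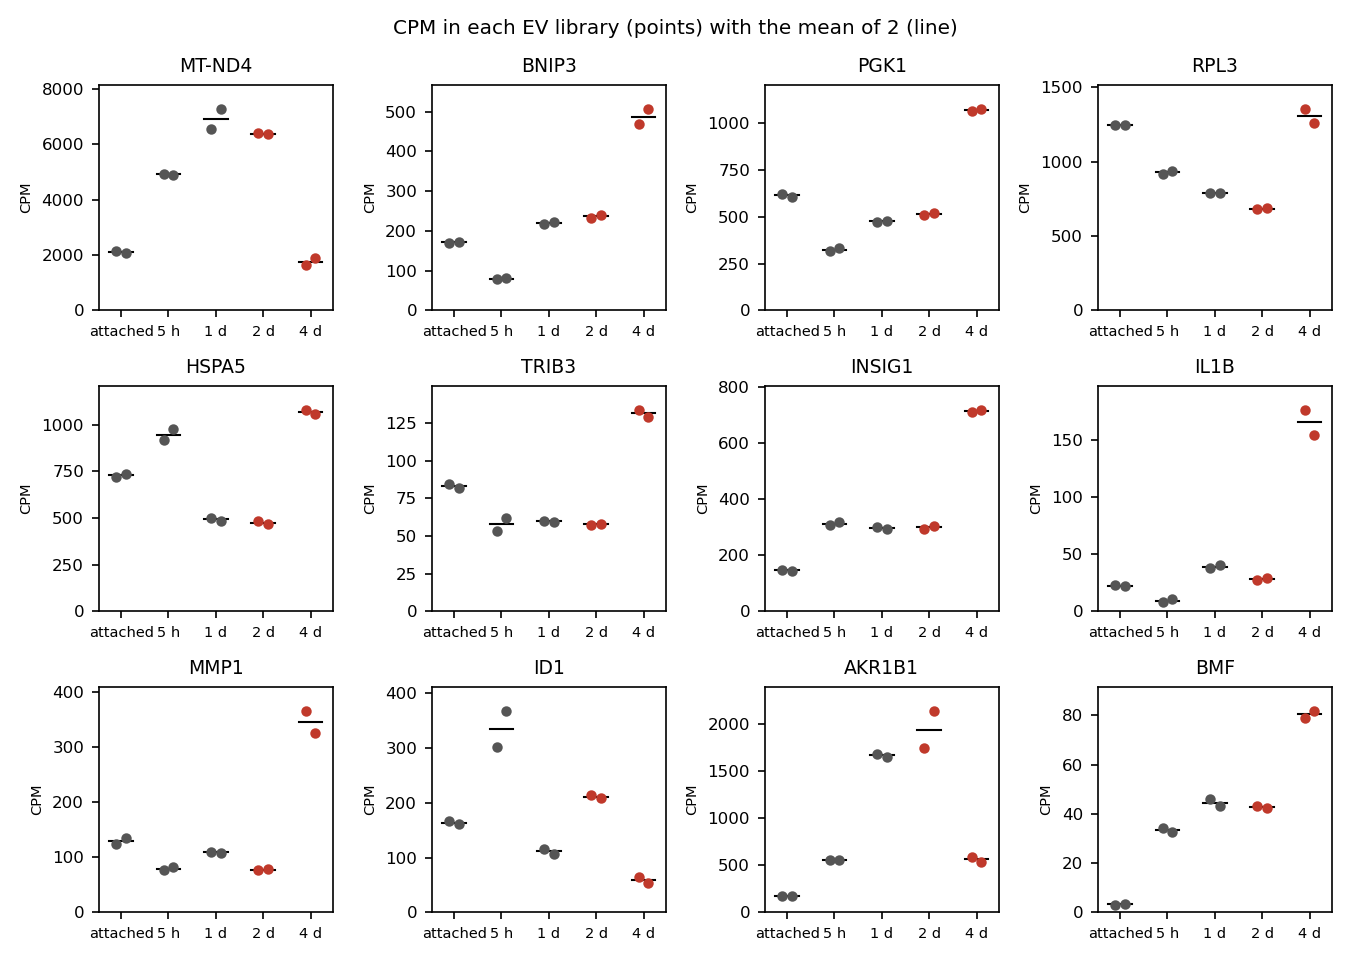
CPM of 12 genes in each EV library (points) with the mean of 2 (line), for attached cells and the 4 times in suspension; the 2-day and 4-day libraries are red. BNIP3, PGK1, TRIB3, INSIG1, IL1B, MMP1 and BMF are highest at 4 days, while MT-ND4, ID1 and AKR1B1 drop from 2 to 4 days.

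The levels of attached EV cells are set beside these as values. BMF averaged 3.25 CPM attached, 42.8 CPM at 2 days and 80.5 CPM at 4 days. NDRG1 averaged 92.6 CPM attached and 506 CPM at 2 days, and INSIG1 146 CPM attached and 300.2 CPM at 2 days, so both had risen before and rose further. PGK1, HK2, TRIB3 and HSPA5 were below their attached levels at 2 days and above them at 4 days; HSPA5, for one, averaged 729 CPM attached, 475 CPM at 2 days and 1069 CPM at 4 days. RPL3 averaged 1247 CPM attached, 682 CPM at 2 days and 1308 CPM at 4 days. It had the largest rise of the 40 ribosomal protein genes from 2 to 4 days. Of these 40 genes, 31 were lower at 4 days than attached and 0 higher, with a median of -0.42. Over all 17191 genes tested, 4807 were lower and 5424 higher in that comparison. AKR1B1 averaged 177 CPM attached and 1942 CPM at 2 days, and its 4-day level of 563 CPM was still above the attached one.

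Matrix proteases rose, with 12 of 17 tested members higher, 2 lower (1 on leaving out any 1 of the 4 libraries) and a median of 0.58. MMP1, the interstitial collagenase, read 76.9 and 78.7 CPM and then 366 and 326 CPM, up by 2.15 ± 0.0782. MMP14, a membrane-bound protease, read 722 and 731 CPM and then 1426 and 1379 CPM, up by 0.95 ± 0.053. The protease inhibitor TIMP3 fell by 0.39. The matrix list was divided, with 5 of 24 members higher and 9 lower. FN1, fibronectin, read 771 and 794 CPM and then 1644 and 1639 CPM, up by 1.07 ± 0.0764. COL7A1, the anchoring fibril collagen, read 621 and 622 CPM and then 241 and 276 CPM, down by a log2 change of -1.27 ± 0.0808. Integrins were divided too, 4 of 14 higher and 4 lower: ITGA3, a laminin receptor subunit, rose by 0.94, whereas ITGA10 and ITGB4 fell by 1.01 and 1.04.

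BMP2, a ligand of the TGF-beta family, read 4.28 and 3.99 CPM and then 23.8 and 21.8 CPM, up by 2.46 ± 0.153. ID1, an inhibitor of helix-loop-helix factors and a BMP target, read 215 and 209 CPM and then 65.4 and 53.1 CPM, a log2 change of -1.84 ± 0.104. ID2 and ID3 fell by 2.24 and 1.15. In the TGF-beta list as a whole 5 of 22 members were higher and 7 lower, with a median within 0.05 of 0 in every alternative. Of NRF2 targets 8 of 20 were lower and 2 higher, with 1 higher without replicate 2 of the 2-day group and 4 with the GC trend removed. AKR1B1, aldose reductase, read 1742 and 2142 CPM and then 593 and 532 CPM, a log2 change of -1.79 ± 0.0754, and NQO1 fell by 1.00.

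The 13 mitochondrial mRNAs all fell past 2-fold, with a median of -1.75 and a range of -2.43 to -1.15. MT-ND4, a complex I subunit, read 6397 and 6379 CPM and then 1629 and 1898 CPM, a log2 change of -1.86 ± 0.127 (edgeR adjusted p = 1.45e-14). MT-ND2 read 2546 and 2550 CPM and then 575 and 613 CPM, a log2 change of -2.10 ± 0.117. In both genes the lowest 2-day library was more than 3 times the highest 4-day library. The summed share of counts in these mRNAs was 3.97% ± 0.0108 (SD, n = 2) at 2 days and 1.20% ± 0.11 at 4 days, against 1.61% in attached EV cells. Of nuclear genes for the respiratory chain 6 of 40 were higher and 7 lower, with a median of 0.01. The lower count was 4 without the filter on low counts and 2 on leaving out any 1 of the 4 libraries, so that higher members outnumbered lower ones there. The higher count was 3 without replicate 1 of the 4-day group and with protein-coding genes alone, and 4 without replicate 1 of the 2-day group. Nuclear copies of mitochondrial DNA such as MTND2P28 share reads with these genes and are uncertain.

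The apoptotic Tpm2.1 fraction had more of the same RNAs. At 2 days the mitochondrial share was 3.40% ± 1.05 (SD, n = 2) in that fraction, whose libraries held 4.14% and 2.67%. In the non-apoptotic fraction it was 1.26% ± 0.0628. The 13 mRNAs had a median log2 difference of 1.36 between the fractions. Across 10141 genes of at least 10 CPM, the EV step from 2 to 4 days and the difference between the fractions at 2 days had a Pearson correlation of -0.493 (Spearman -0.466), and -0.474 without mitochondrial genes. Genes are not independent replicates, the values come from 1 fit and share gene length and base composition, and the part of dying cells in the EV step was not tested.

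Transcripts other than mRNAs were frequent among the steep falls, at 441 of the 828 genes past 2-fold lower and 70 of the 311 past 2-fold higher. Of all 17191 genes tested, 13343 were protein-coding. Past 2-fold higher were 1.81% of protein-coding genes and 1.81% of all genes, so the count of 70 is near the share over all genes. Past 2-fold lower were 2.9% and 4.82%. Of antisense transcripts 12.4% were past 2-fold lower, of lincRNAs 10.7% and of sense-intronic transcripts 17.6%, against 2.9% of protein-coding genes. MALAT1, an abundant RNA of nuclear speckles, read 347 and 326 CPM and then 102 and 124 CPM, a log2 change of -1.57 ± 0.093. NEAT1, the scaffold of paraspeckles, read 1069 and 1065 CPM and then 373 and 558 CPM, a log2 change of -1.20 ± 0.121. The list of nuclear-retained and long noncoding RNAs that holds them had 3 of 8 tested members higher and 4 lower, with a median of -0.12. NORAD, OIP5-AS1 and GAS5 rose by 0.33, 0.29 and 0.22, and KCNQ1OT1 and SNHG1 fell by 1.15 and 0.31. MALAT1 and NEAT1 stood higher in the apoptotic than in the non-apoptotic fraction at 2 days, by 1.35 and 0.94, and strand use in counting is not stated, so antisense genes cannot be told from their partners.

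All 40 ribosomal protein genes rose, by 0.28 to 0.94 with a median of 0.54. RPL3, a large-subunit protein, read 679 and 686 CPM and then 1356 and 1259 CPM, up by 0.94 ± 0.0559. RPL10 read 316 and 326 CPM and then 623 and 594 CPM, up by 0.92 ± 0.0589. A wider set, all protein-coding genes with a ribosomal protein symbol, held 2.62% ± 0.0216 of counts at 2 days and 3.57% ± 0.116 at 4 days. Both were below the 4.40% of attached cells. Pseudogenes of these genes share reads with them. Of ribosome assembly factors 6 of 28 were higher and 5 lower, with 2 lower without replicate 1 of either group.

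**Figure D4:**
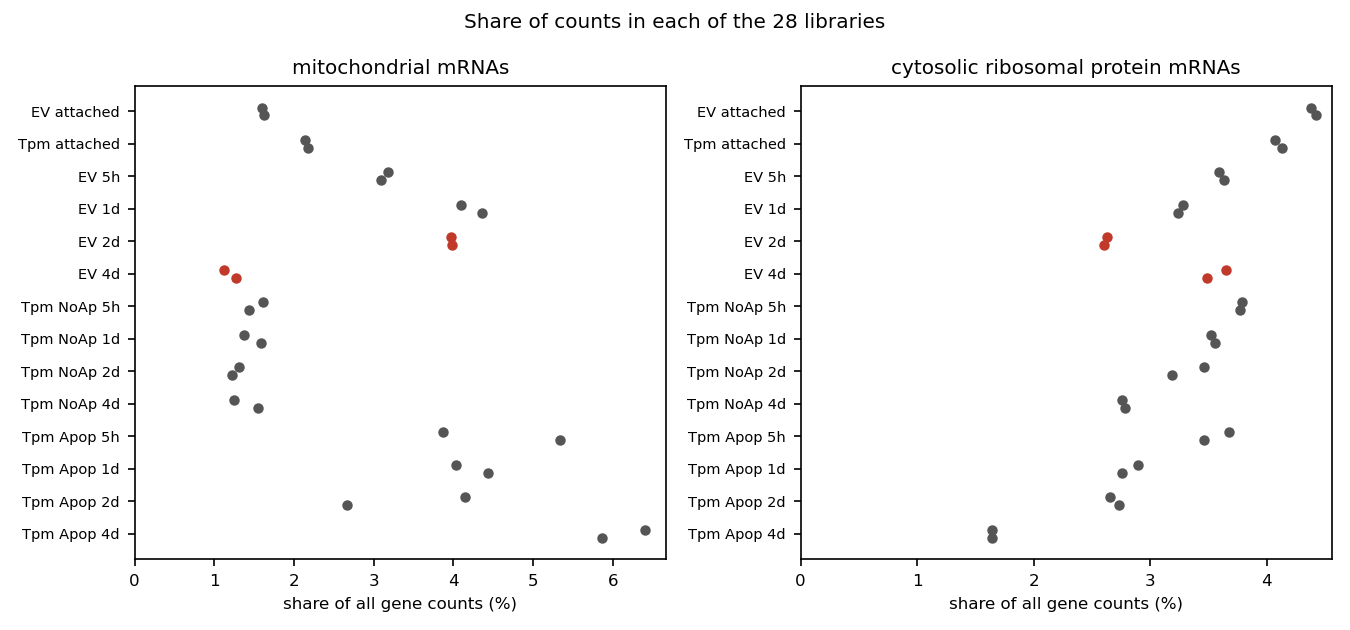
Share of all gene counts (%) in mitochondrial mRNAs (left) and in cytosolic ribosomal protein mRNAs (right) for each of the 28 libraries. The ribosomal set was taken by gene symbol and is wider than the list of 40. Rows are groups, and EV cells at 2 and 4 days are red. The mitochondrial share of EV cells falls from 3.97% to 1.20% between these groups, while the ribosomal protein share goes from 2.62% to 3.57%.

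Proliferation genes changed by less. Of 30 genes of mitosis 21 were lower and none higher, with a median of -0.33. MKI67, the Ki-67 antigen, read 427 and 389 CPM and then 225 and 263 CPM, a log2 change of -0.74 ± 0.069. CDK1 did not pass (109 and 102 CPM, then 108 and 102 CPM). Of 30 replication genes 6 were higher and 8 lower. The balance turned to 10 higher and 7 lower with the GC trend removed, to 7 and 6 without the filter on low counts, to 7 and 4 or 6 and 4 without replicate 1 or 2 of the 2-day group and to 7 and 3 without replicate 2 of the 4-day group, and was 5 and 5 without its replicate 1. PCNA, the polymerase clamp, rose by 0.42. CCND1, cyclin D1, rose by 0.64 and CDK6, one of its kinases, fell by 0.88.

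The BCL-2 family moved in both arms. Of 12 pro-apoptotic members 7 were higher and 1 lower (2 lower in 4 of the alternatives). BMF, a BH3-only protein linked to anoikis (chromosome 15, 40087890 to 40108892, hg38), read 43.2 and 42.3 CPM and then 79.1 and 81.9 CPM, up by 0.91 ± 0.0807. Of 9 anti-apoptotic members 5 were higher (3 without replicate 2 of the 2-day group) and 3 lower (1 without its replicate 1). MCL1 and BCL2L1, which hold back BAX and BAK, rose by 0.65 and 0.72. EPHA2, a receptor tyrosine kinase, read 676 and 715 CPM and then 833 and 780 CPM, up by 0.21 ± 0.0511. AKT2 fell by 0.30, while the call of AKT1 (0.17, edgeR adjusted p = 0.044) was lost in 9 alternatives, with adjusted p from 0.0519 to 0.237.

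The cytoskeleton list had 18 of 35 members higher and 6 lower (median 0.14). TPM4, another tropomyosin, read 683 and 678 CPM and then 1046 and 1006 CPM, up by 0.59. VIM, the intermediate filament vimentin, read 767 and 756 CPM and then 1286 and 1280 CPM, up by 0.75, in a list of mesenchymal factors and filaments with 5 of 13 members higher and 5 lower. Proteasome subunits had 11 of 27 members higher and 5 lower. Of these 7 were higher without replicate 2 of the 2-day group or replicate 1 of the 4-day group, 2 were lower without replicate 2 of either group and 3 were lower without replicate 1 of either group. Eph receptors and ephrins had 7 of 14 higher and 1 lower, and 3 higher without replicate 1 of either group. Death receptors and caspases had 8 of 22 higher (5 without replicate 1 of the 2-day group) and 3 lower (1 without that library or either 4-day replicate), with CASP1, an inflammatory caspase, up by 1.34. Of 11 histone genes 6 were lower and none higher (median -0.59), and of 20 p53 targets 6 were higher and 3 lower.

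Outside the lists, the protein-coding gene with the highest change by the naming rule was RAB3B, a GTPase of vesicle release, at 1.82 and 2.56 CPM and then 19.2 and 24.1 CPM, up by 3.30 ± 0.306. ASS1, which makes argininosuccinate, rose by 2.82 and VSTM2L by 2.78. The lowest were CAPN8, a calpain protease (229 and 368 reads, then 19 and 14), and AQP3, a water and glycerol channel (165 and 206 reads, then 8 and 15). CYP1A1, a target of the aryl hydrocarbon receptor, read 140 and 147 CPM and then 27.2 and 24.4 CPM, a log2 change of -2.47 ± 0.106. EIF3CL is uncertain, since it shares reads with EIF3C and its change of -2.62 was -0.13 (edgeR adjusted p = 0.779) without replicate 1 of the 2-day group.

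The same step in the non-apoptotic Tpm2.1 fraction, which shares no library with it, had 5859 genes called (34.1%; 18.0% higher and 16.1% lower, and past 2-fold 2.06% and 3.51%). Between the steps 5369 genes differed (31.2%; 18.2% more positive in EV cells and 13.1% more negative, and past 2-fold 3.39% and 3.77%). All 13 mitochondrial mRNAs had a more negative step in EV cells and all 40 ribosomal protein genes a more positive one; in the fraction the medians were 0.16 and -0.12. In the fraction 30 of 30 mitotic genes fell, with a median of -1.59, and the step of all 30 was more positive in EV cells. MKI67 fell there from 357 and 323 CPM to 110 and 124 CPM. Of hypoxia genes 18 of 25 had a more positive step in EV cells and 1 a more negative one, and of glycolysis genes 15 of 20 and 1. Other lists that rose in EV cells also rose in the fraction. There 22 of 27 NF-kB genes were higher and 0 lower (median 0.87), and 16 of 20 ER stress genes and 0 (median 0.42). Sterol synthesis had 15 of 26 higher and 3 lower, matrix proteases 11 of 17 and 2, and autophagy and lysosome genes 21 of 30 and 1. Of these lists, NF-kB had 2 steps more positive in EV cells and 10 more negative, ER stress 12 and 1, and sterol synthesis 14 and 1. The log2 step of NDRG1 was 0.02 in the fraction, which was not called, and 1.47 in EV cells, a difference of 1.46 in edgeR. ID1 rose there by 0.80, from 238 and 202 CPM to 391 and 376 CPM, a difference of -2.64. For IL1B the steps were 2.55 and 2.53 (difference 0.02 ± 0.115, edgeR adjusted p = 0.939), which does not show that they are equal. The line and the bead separation differ together here and cannot be told apart.

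**Figure D5:**
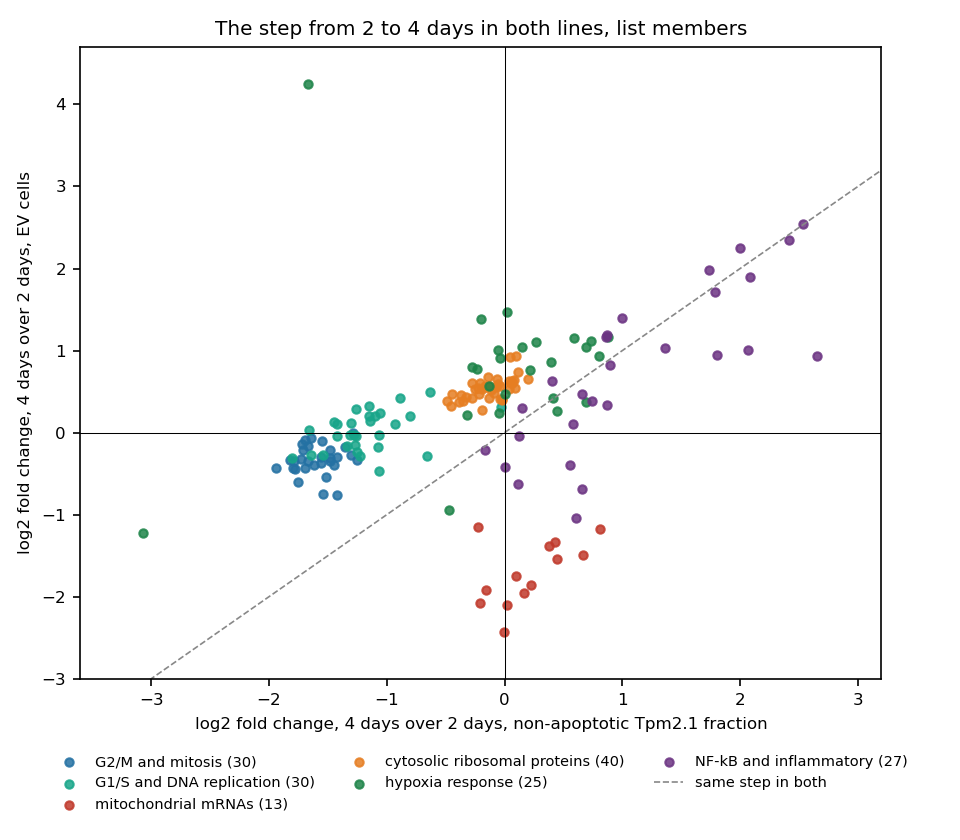
Log2 fold change of 4 days over 2 days in EV cells (vertical axis) against the same step in the non-apoptotic Tpm2.1 fraction (horizontal axis) for the members of 6 lists; the dashed line marks equal steps. Mitotic and replication genes lie to the left above the line, mitochondrial mRNAs below it and most hypoxia and all ribosomal protein genes above it, while IL1B lies close to it; CA9 is the point at 4.25.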

How the data were processed

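RNA sequencing counts per gene for the 28 libraries were analysed as the authors deposited them (58735 genes; 14 groups of 2). The submitters' processing notes name hg38 and DESeq2 without saying where each was used; the sources used here give no aligner or strand setting, and a deposited FPKM table was not used. Genes passing filterByExpr were fitted with edgeR 4.0.16 (R 4.3.3; TMM, quasi-likelihood test, a mean per group over all libraries, 14 residual degrees of freedom), with Benjamini-Hochberg adjustment over all genes tested. SE is the fold change divided by the root of F. Named were the 12 highest and 12 lowest protein-coding genes of at least 10 CPM without overlap, the 4 smallest p-values of each list, 4 noncoding genes, TPM2, EPHA2, AKT1, AKT2 and BMF, and 6 highest and 6 lowest differences of the step. The members, lists and tests were chosen with earlier results of these data known, and the values of the apoptotic fraction were added after seeing the data. Alternatives were DESeq2 1.42.0, other scalings, filters and libraries, a GC correction, a replicate block and leaving out each library. On simulated counts, 98.5% of 2-fold and 91% of 1.5-fold changes in the EV step were recovered, with 3.5% false calls. The genes tested there numbered 16371. For the difference of the step, 94% of 2-fold and 77.6% of 1.5-fold changes were recovered, with 3.7% false calls. The simulation changed a small set of genes in the 4-day EV group alone, and none at the lowest levels. Its noise followed the trend of spread with level, with no added spread for single genes or groups. How far these rates hold for the libraries themselves was not tested. Promoters are RefSeq windows of GRCh38.p14. One list symbol, FASTKD4, was not matched, and some list members are not reported here.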

Additional observations from a re-analysis of the deposited data

Results flagged for a closer look

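By edgeR's test of the difference itself, the step from 2 to 4 days differed between EV cells and the non-apoptotic Tpm2.1 fraction for many genes. These were 5369 of 17191 (31.2%), with 18.2% more positive in EV cells and 13.1% more negative. More positive in EV cells were 30 of 30 mitosis, 29 of 30 replication and 40 of 40 ribosomal protein genes. So were 18 of 25 hypoxia and 15 of 20 glycolysis genes, while 13 of 13 mitochondrial mRNAs were more negative. The differences (log2, EV step minus the step in the fraction) were -1.06 for TPM2, -0.28 for AKT2 and 0.93 for BMF. Those chosen as most positive were 4.35 for XAGE1B, 3.67 for SLAMF7, 2.85 for AGR2, 2.75 for SPNS2, 2.59 for RGS4 and 2.57 for RAB3B. XAGE1B read 45.9 and 11.2 CPM in the 2 EV libraries at 4 days, belongs to a family of near-identical copies, and its difference was 3.02 (edgeR adjusted p = 0.0567) without the first of them. Those chosen as most negative were -2.43 for ACOD1, -2.51 for SPP1, -2.64 for ID1, -2.72 for ID2, -3.07 for RSAD2 and -3.46 for SYN1. SPP1, osteopontin, rose in the fraction from 52.7 and 87.0 CPM to 1016 and 1031 CPM, while EV cells had 12 and 18 reads and then 36 and 38. ACOD1 and RSAD2 had at most 9 reads in any of the 4 EV libraries, and the calls of ACOD1, SPP1 and RSAD2 were each lost on leaving out 1 or more single libraries.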

How the results depend on the processing

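The 828 and 311 genes past 2-fold came to 1139 in all, and to 649 when protein-coding genes alone were fitted, a setting that tests fewer genes. Leaving out each of the 4 libraries gave 1770 to 2264 genes lower, 2915 to 3466 higher and 729 to 1029 past 2-fold, with fewer samples in the fit. With a replicate block 6677 genes were called (3831 higher and 2846 lower, 6602 of them shared with the fit without it), 1119 past 2-fold, and no list count given above changed by over 1.5 times. The deviations of same-numbered libraries at 2 and 4 days had a correlation of -0.0404, so no shared deviation was seen. The labels do not say whether same-numbered libraries were paired. The share of called genes that were higher ran from 50.8% to 62.2% over the alternatives (57.1% as reported), and no called fold change of a gene named by the rule changed sign. The balance of higher and lower members did turn in 1 or more alternatives for the replication, nuclear respiratory chain, cell-cell adhesion and PI3K and AKT lists. Medians near 0 changed sign in 2 or more alternatives for the replication, nuclear respiratory chain, ribosome assembly, p53, cell-cell adhesion and TGF-beta lists. The median of the list of mesenchymal factors and filaments went from -0.14 to 0.04 without replicate 1 of the 2-day group. The calls of NDUFB10 and ATP5PB, EIF3CL, AKT1, XAGE1B, ACOD1, SPP1 and RSAD2 were lost in 1 or more alternatives. With 2 libraries a group the spread is pooled over 14 groups, so a group that varies more than the others has p-values that are too small, and a lone library left in a group is assumed to vary like the rest. Genes of few reads have imprecise fold changes.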

Other observations

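Genes of antigen presentation were mostly higher at 4 days, with 10 of 18 members of the MHC class I list higher and 3 lower (median 0.34; 1 lower without replicate 2 of either group). HLA-B, a class I heavy chain, read 175 and 176 CPM and then 356 and 323 CPM, up by 0.95 ± 0.072 in edgeR's fit. FOXO targets had 11 of 23 members higher and 5 lower. TXNIP, which binds thioredoxin and limits glucose uptake, read 60.5 and 58.8 CPM and then 139 and 134 CPM, up by 1.19 ± 0.0613, and CITED2, a transcriptional co-regulator, rose by 1.28. SESN3, a sestrin on the same list, fell by 1.55. Of YAP and TAZ targets 8 of 24 were higher and 2 lower (4 lower with protein-coding genes or the EV libraries alone): NT5E, the ectonucleotidase CD73, rose by 0.94 and THBS1, thrombospondin 1, fell by 0.67. Metallothionein MT1E, which has near-identical relatives, read 39.4 and 37.2 CPM and then 143 and 132 CPM, up by 1.84.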
